A study of Mus musculus with 4 samples.

Results

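The genes described here are 32 mouse genes of the piRNA pathway and of the germ granules, taken by symbol from a set list of Piwi proteins, Tudor-domain scaffolds and piRNA biogenesis factors. All 32 symbols were found among the 55450 genes of the deposited count tables. By role they were 3 Piwi proteins, 10 genes of precursor processing and end maturation, 9 Tudor scaffolds, 4 helicases and granule proteins, 2 regulators of transcription of the pathway and 4 genes of silencing in the nucleus. The study measured dissociated mouse testis by droplet single-cell RNA sequencing (10x Chromium, a 3′ method that counts each captured transcript end by its unique molecular identifier, UMI). Of the 4 libraries, 2 came from the high-fat arm (HFD) and the other two from the normal-diet arm (ND). Strain, age, length of feeding and the number of animals in each library are not given in the sources used here, and nothing in them says that the libraries came from separate mice. The p-values therefore measure only the spread between these 4 libraries, which may be technical.

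PIWI-interacting RNAs, piRNAs, are small RNAs of the germ line that guide Piwi proteins to transposon transcripts and to other targets. Long precursor transcripts are cut on the mitochondrial surface, loaded into Piwi proteins, trimmed and methylated at the 3′ end, and much of this takes place in germ granules such as the intermitochondrial cement and the chromatoid body, which Tudor-domain proteins hold together. In the mouse testis an early set of piRNAs acts with the fetal and neonatal Piwi proteins in transposon silencing, and a later pachytene set is made in spermatocytes under the transcription factor A-MYB, the product of Mybl1.

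The libraries held 13561 to 15290 barcodes and 143748262 to 154221188 UMIs, and 13122 to 14468 cells per library were kept. Between 42 and 65 barcodes were shared by any pair of libraries. Cells were clustered without the 32 genes, and clusters were named from marker genes, so stages carry the ending "-like". The 8 germ-cell stages were spermatogonia-like cells (221), Prss50-led early-spermatocyte-like cells (663), Rnf227-led early-spermatocyte-like cells (3519, led also by Tex101), Pou5f2-led spermatocytes (2780), late-spermatocyte-like cells (2360), early-round-spermatid-like cells (10333), late-round-spermatid-like cells (3936) and elongating-spermatid-like cells (6414). The Prss50-led stage joins clusters of 303, 231 and 129 cells. Of the recombination genes, Meiob was among the leading genes of the cluster of 231 cells, and Dmc1 and Prdm9 of that of 129. The clusters of 303 and 231 cells scored second for Sertoli markers (0.798 and 0.742). Summed Sertoli markers were 372 to 411 CPM in Prss50-led and 23.4 to 32.9 CPM in Rnf227-led cells. The Pou5f2-led cluster scored highest for pachytene markers, at only 0.387, with none of them among its 10 leading genes, and it was not named from its scores. The Prss50-, Rnf227- and Pou5f2-led stages are called after a gene among the leading 10 of their clusters, not always the first (Pou5f2 was the third). Pou5f2 is itself on the late-spermatocyte marker list and Prss50 on the spermatogonia list, so these labels are not markers of the stages they name. The other spermatid and spermatocyte names rest on marker scores. The early-round-spermatid-like clusters had 0 of their own markers among their 10 leading genes, and 1 late-round-spermatid-like cluster of 1806 cells scored 1.22 for elongating and 1.14 for late round spermatids, so the borders between spermatid stages are uncertain. Clusters left unnamed, mostly of low depth, held 36.1% to 42.4% of the cells of each library. Late-spermatocyte-like cells gave 15.9% ± 0.229 (SD, n = 2) of the UMIs in HFD and 11.0% ± 0.460 in ND, Pou5f2-led spermatocytes 15.4% ± 0.570 and 11.9% ± 0.513, and early-round-spermatid-like cells 23.4% ± 0.458 and 30.4% ± 0.227. With 2 libraries per diet the smallest p of an exact two-sided permutation test of these shares is 0.333, so they are given without a test.

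Promoter sequence was at hand for 25 of the 32 members, as the 250 bases before to 50 after each annotated RefSeq start (GRCm38.p6). The core AACNGTC, the letters that MYB-family factors bind, was searched on both strands in the 250 bases before each start. It was present for 6 of the 25 members, Tdrd5, Tdrd7, Fkbp6, Dnmt3l, Tdrd9 and Mov10l1, which is 24%, and for 7.615% of the 27025 genes of the table. By promoter, it was present in 16.67% of the 36 of these members and in 6.636% of all 32851. The following 3 windows are shown because they lie wholly upstream of the annotated gene, with the core in capitals, 5′ to 3′ along the gene's plus strand, at chr15:88982749-88982812, chr12:111971495-111971558 and chr4:45965130-45965193.
Mov10l1: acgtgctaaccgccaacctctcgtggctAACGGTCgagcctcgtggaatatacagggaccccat
Tdrd9: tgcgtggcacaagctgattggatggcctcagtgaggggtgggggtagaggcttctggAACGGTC
Tdrd7: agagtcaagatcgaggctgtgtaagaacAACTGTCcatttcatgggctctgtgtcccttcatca
The core ends at the start site in Tdrd9 and begins 217 bases before it in Mov10l1 and 177 bases before it in Tdrd7. Mov10l1 (a helicase needed for precursor processing) and Tdrd9 (a Tudor-domain helicase) were highest in the same stage as Mybl1, and Tdrd7 (a chromatoid-body Tudor protein) was highest after meiosis, in early-round-spermatid-like cells. The values of Tdrd9 and of Mybl1 overlapped those of their next stage. Tdrd5, Fkbp6 and Dnmt3l were highest in Rnf227-led, spermatogonia-like and early-round-spermatid-like cells. Asz1 and Stk31, highest in the same stage as Mybl1, had no match. A match is a description of letters and not a site.

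Most of the 32 genes were highest in meiotic cells before the spermatid stages, and they reached their maxima in sequence. Levels are given as CPM, the UMIs of a gene in each 1000000 UMIs of a stage, as the mean of the 4 libraries, and since a 3′ count does not grow with transcript length, genes are compared on that scale. By highest stage there were 7 members in spermatogonia-like cells, 6 in Prss50-led and 13 in Rnf227-led early-spermatocyte-like cells, 1 in Pou5f2-led spermatocytes, 2 in late-spermatocyte-like cells, 2 in early-round-spermatid-like cells and 1 in late-round-spermatid-like cells, with 0 in elongating-spermatid-like cells. The summed level of all 32 was 4052 CPM ± 230.0 (SD, n = 4) in spermatogonia-like cells, rose to 6947 ± 49.9 in Rnf227-led cells, and was 2947 ± 17.5 and 1474 ± 98.2 in late-round- and elongating-spermatid-like cells. These levels are a description without a test. For 14 of the 32 members the library values of the highest and the next stage overlapped, so that the order of those neighbours is not settled.

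**Figure D1:**
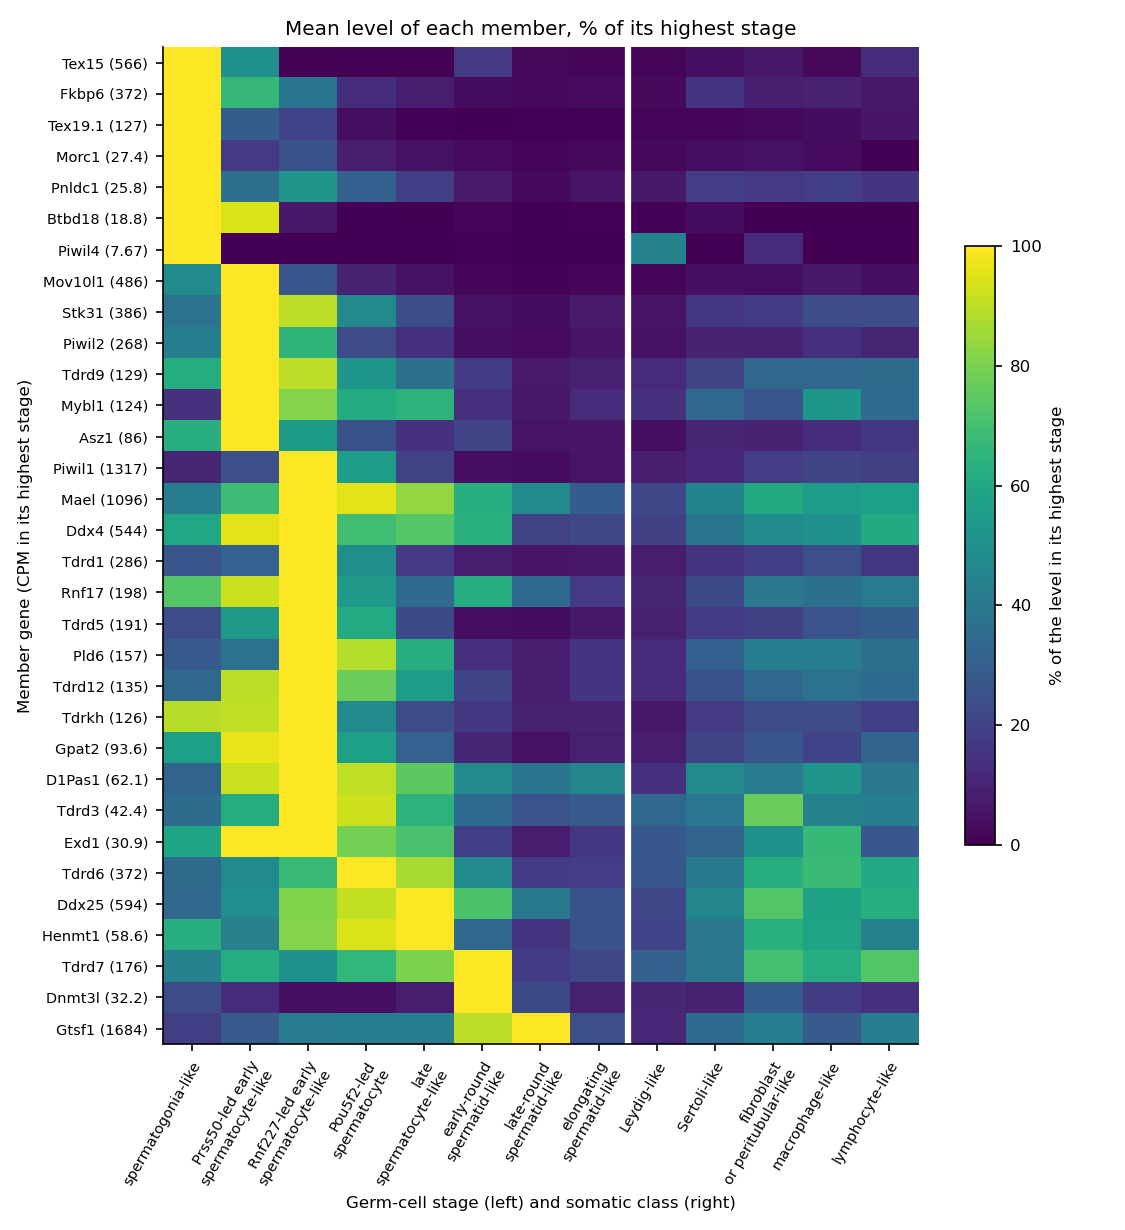
Mean level of each member over 4 libraries (rows, with the CPM in its highest stage) in the 8 germ-cell stages and, right of the white line, in 5 somatic classes, as a percentage of the level in its highest stage. The maxima run from Tex15 (566 CPM) in spermatogonia-like cells through Piwil1 (1317 CPM) in Rnf227-led early-spermatocyte-like cells to Gtsf1 (1684 CPM) in late-round-spermatid-like cells.

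Somatic cells, which should lack most of these transcripts, were used as the background. Free RNA in the droplets was not measured. It cannot be told apart here from doublets left in or from expression in the somatic cells themselves. Piwil1, the Piwi protein of the pachytene set, had a mean of 108 CPM in Leydig-like and 276 CPM in macrophage-like cells, and the summed level of the 32 genes in the 5 somatic classes ran from 1191 CPM in Leydig-like to 3414 CPM in fibroblast or peritubular-like cells. Of the 32 members, 16, 23, 26, 24 and 14 lay above every somatic class in the stages from spermatogonia-like to late-spermatocyte-like cells, in the order above. In early-round-, late-round- and elongating-spermatid-like cells only 8, 1 and 0 did. The 8 in early-round-spermatid-like cells were Ddx4, Mael, Tdrd7, Asz1, Gtsf1, Rnf17, Tex15 and Dnmt3l. By this measure the level of the other members in spermatids is not above that background and is not read as expression here. The measure does not adjust for depth. Median UMIs per cell by library were 10920 to 12966 in early-round-spermatid-like cells, and ran from 1612 in fibroblast or peritubular-like to 7136 in Leydig-like cells. Ddx25 was seen in 96.4% of early-round-spermatid-like and 51.0% of Leydig-like cells, a share that also grows with depth. Members below the somatic level are therefore not called absent.

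The 3 Piwi genes peaked in different stages. Piwil1 (MIWI, chr5:128702524-128755474) was at 1317, 1346, 1352 and 1252 CPM in Rnf227-led cells of HFD 1, HFD 2, ND 1 and ND 2, and at a mean of 732 in Pou5f2-led spermatocytes and 320 in Prss50-led cells. The libraries of the highest and the next stage did not overlap, and both diets lay within the same range. Piwil2 (MILI, which acts in both the early and the pachytene set) was at 276, 279, 248 and 267 CPM in Prss50-led cells in the same order of libraries. Its mean was 174 CPM in Rnf227-led cells and 37.1 in late-spermatocyte-like cells, where it was already within the range of the somatic classes, 13.4 to 37.5. Piwil4 (MIWI2, the nuclear Piwi protein of fetal germ cells) was nearly absent, with 9 UMIs and 3.16, 3.74, 5.50 and 18.3 CPM in spermatogonia-like cells. No Piwil4 UMI was seen among 3186455 in Prss50-led cells, which allows up to 0.941 CPM, or among 74959579 in Pou5f2-led spermatocytes, which allows up to 0.0400 CPM. Leydig-like cells held 26 Piwil4 UMIs, 3.9, 1.39, 4.26 and 4.21 CPM by library, while Sertoli-like cells held 0, which allows up to 0.453 CPM. Such limits cover counting error only.

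Among regulators of the pathway's transcription, Mybl1 (A-MYB, chr1:9667415-9700209) was at 106, 153, 114 and 123 CPM in Prss50-led cells, against 12.6, 18.7, 27.5 and 11.0 in spermatogonia-like cells. The library values of these stages did not overlap. The next stage, Rnf227-led cells with a mean of 101 CPM, overlapped the highest. Mybl1 stayed at 76.5 and 80.2 CPM in Pou5f2-led and late-spermatocyte-like cells and fell to 16.6 CPM in early-round-spermatid-like cells, below the lowest somatic class at 17.5. Btbd18 (a nuclear factor that promotes elongation at pachytene piRNA loci) was low throughout, at 18.8 CPM in spermatogonia-like and 17.8 in Prss50-led cells, with 0 UMIs in late-spermatocyte-like cells, which allows up to 0.0405 CPM.

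Genes of precursor processing spread over the whole series of stages. Mov10l1 was at 466, 496, 494 and 487 CPM in Prss50-led cells, against a mean of 235 in spermatogonia-like and 127 in Rnf227-led cells. Pld6 (the mitochondrial nuclease Zucchini) was highest in Rnf227-led cells at 157 CPM, and Tdrkh (the mitochondrial anchor of Piwi proteins), Gpat2 and Exd1 (an RNA-binding partner of Tdrd12) also had their maxima there, at 126, 93.6 and 30.9 CPM. Fkbp6 (a co-chaperone in Piwi loading) and Pnldc1 (the 3′ trimming enzyme) were highest in spermatogonia-like cells, at 372 and 25.8 CPM, and Asz1 (a mitochondrial surface protein of the pathway) in Prss50-led cells at 86.0. Henmt1, the 3′ end methyltransferase, peaked in late-spermatocyte-like cells at 58.6 CPM, with Pou5f2-led spermatocytes at 55.5 overlapping it. Gtsf1 (a zinc finger cofactor of Piwi slicing) had the highest level of any member. It was at 1679, 1669, 1678 and 1708 CPM in late-round-spermatid-like cells, above all 4 values of early-round-spermatid-like cells, 1482, 1489, 1536 and 1553, and was the highest member there and in elongating-spermatid-like cells too, at 412 CPM. That last value is within the range of the somatic classes, 197 CPM in Leydig-like to 727 CPM in fibroblast or peritubular-like cells.

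The Tudor scaffolds did not share a maximum either. Tdrd1, Tdrd5, Tdrd12, Rnf17 and Tdrd3 were highest in Rnf227-led cells, from 42.4 CPM for Tdrd3 to 286 CPM for Tdrd1, and Stk31 and Tdrd9 in Prss50-led cells at 386 and 129 CPM. Tdrd6 (a scaffold of the chromatoid body) came later, at 379, 383, 368 and 359 CPM in Pou5f2-led spermatocytes, and Tdrd7 latest, at 172, 165, 176 and 192 CPM in early-round-spermatid-like cells. Tdrd7 then fell to a mean of 31.6 CPM in late-round-spermatid-like cells, below every somatic class. Rnf17 was lower in late-spermatocyte-like cells (69.0 CPM) than in early-round-spermatid-like cells (123 CPM), and the library values of these stages, 67.3 to 71.4 and 119 to 131, did not overlap.

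Of the helicases and granule proteins, Ddx4 (the germ-cell helicase Vasa, chr13:112598333-112652475) was broad. It was at 528, 545, 545 and 558 CPM in Rnf227-led cells, overlapping Prss50-led cells with a mean of 521, and still at 348 CPM in early-round-spermatid-like cells, above the 330 of the highest somatic class. It was at 105 and 118 CPM in the later spermatids. Mael (Maelstrom) was the highest member in Prss50-led cells (791, 818, 735 and 680 CPM), in Pou5f2-led spermatocytes (1012, 1026, 1063 and 1103) and in late-spermatocyte-like cells (891, 906, 909 and 960). Ddx25 (a testis helicase regulated by gonadotropin) was highest in late-spermatocyte-like cells at 594 CPM, and D1Pas1 (an autosomal retrocopy of the Ddx3 family) in Rnf227-led cells at 62.1 CPM. D1Pas1 can share reads with Ddx3x and Ddx3y, so that its values are uncertain.

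Of the 4 genes of nuclear silencing, Tex15, Tex19.1 and Morc1 were highest in spermatogonia-like cells and Dnmt3l in early-round-spermatid-like cells. Tex15 (a nuclear partner of Piwil4) was the highest member in spermatogonia-like cells, at 518, 621, 495 and 629 CPM. It stood at 5.03, 3.27 and 2.30 CPM in the 3 stages from Rnf227-led to late-spermatocyte-like cells, below every somatic class, and at 96.8, 99.7, 98.2 and 92.9 CPM in early-round-spermatid-like cells. All 4 libraries showed this gap. Dnmt3l (the cofactor of de novo DNA methylation) was at 31.1, 32.0, 32.8 and 32.7 CPM in early-round-spermatid-like cells, against 1.26 CPM in Pou5f2-led spermatocytes and 7.42 in spermatogonia-like cells, where it lay within the range of the somatic classes (2.97 to 9.54). In spermatogonia-like cells Tex19.1 was at 127 and Morc1 at 27.4 CPM. Tex19.1 has a close neighbouring paralog, Tex19.2, with which it can share reads.

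**Figure D2:**
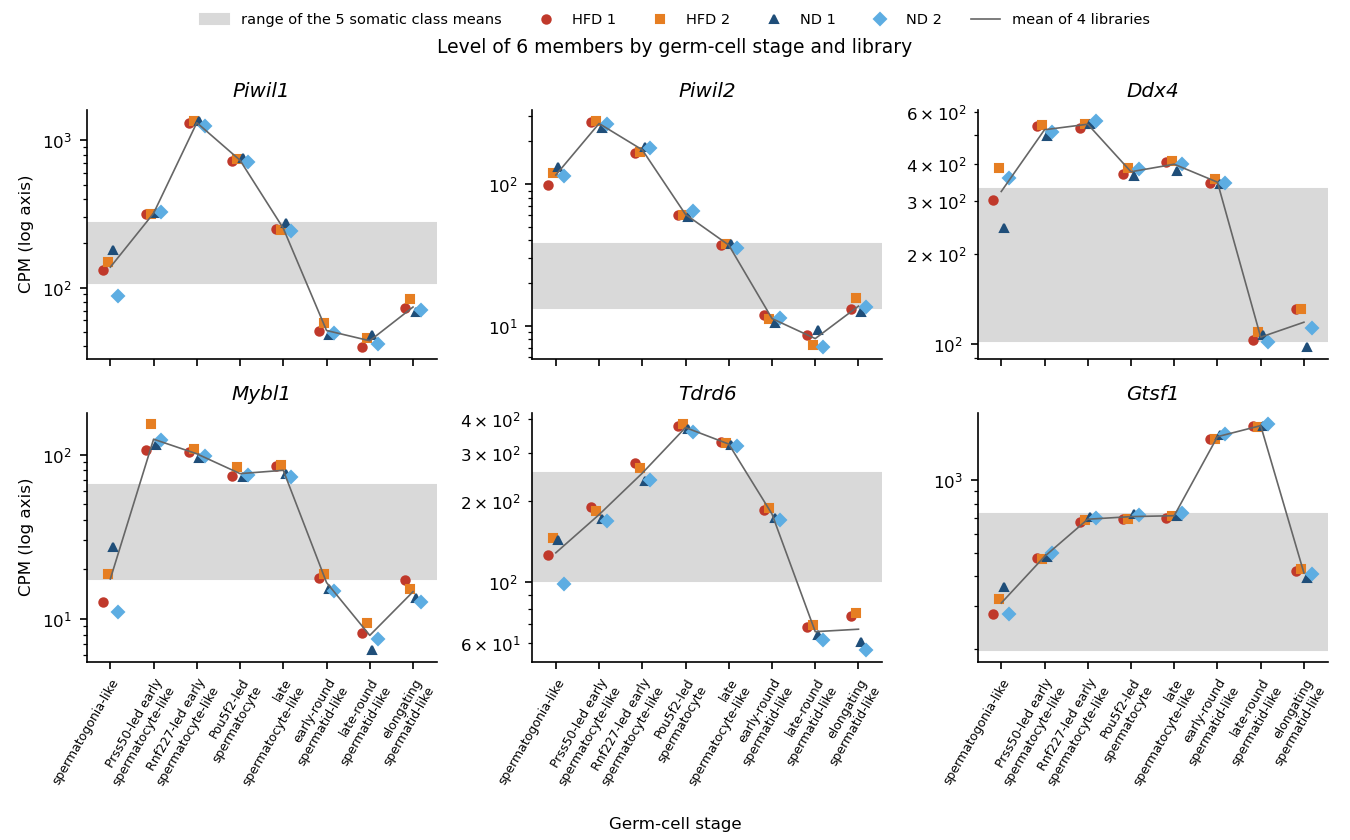
CPM (log axis) of 6 members in each germ-cell stage, with 1 symbol per library, a line through the mean of the 4 libraries and a grey band from the lowest to the highest of the 5 somatic class means. Piwil1, Piwil2, Mybl1 and Tdrd6 lie inside or below the band in the spermatid stages, while Gtsf1 lies above it in early-round- and late-round-spermatid-like cells.

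Between the diets, the whole testis showed more RNA of many of these genes in HFD. UMIs of all kept cells were summed per library and compared with edgeR's quasi-likelihood test, with Benjamini-Hochberg adjustment over all 25470 genes tested and a threshold of 0.05. Of the 32 members, 13 were higher in HFD and 3 were lower. Over all genes 15.3% were called higher and 18.9% lower. The member median was 0.11 on the log2 scale (HFD over ND) and that of all genes -0.02, and 18 members had both HFD libraries above both ND libraries and 5 both below, against 31.6% and 35.9% of all genes. By role, 5 of 9 Tudor scaffolds (Tdrd6, Tdrd12, Stk31, Tdrd9 and Tdrd1), 5 of 10 processing genes (Pld6, Exd1, Henmt1, Gpat2 and Mov10l1), Piwil1, Mybl1 and D1Pas1 rose. Dnmt3l, Tex15 and Gtsf1 fell. Of the 13 that rose, 7 were among the 13 members highest in Rnf227-led cells and 4 among the 6 highest in Prss50-led cells. Tdrd6, the 1 member highest in Pou5f2-led spermatocytes, rose too, as did 1 of the 2 highest in late-spermatocyte-like cells. Rnf227-led cells gave 11.4% and 13.2% of the UMIs in HFD 1 and HFD 2 and 11.6% and 12.1% in ND 1 and ND 2, with overlap. Prss50-led cells gave 0.473%, 0.527%, 0.670% and 0.665% in the same order, lower in both HFD libraries. In a sum over cells, more cells of a stage and more RNA per cell cannot be told apart.

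Among the members that rose, Mybl1 was at 53.2 and 58.1 CPM in HFD 1 and HFD 2 and at 42.7 and 43.4 in ND 1 and ND 2, here scaled by the TMM (trimmed mean of M-values) factors of the test. Its log2 ratio was 0.37 (standard error, SE, 0.0475, edgeR adjusted p 5.7e-05). Pld6 (chr11:59783897-59787645) was at 76.9, 80.2, 63.4 and 62.1 CPM in the same order, for a ratio of 0.32 (SE 0.0415, edgeR adjusted p 5.5e-05). The groups did not overlap for either gene. Henmt1 (chr3:108939873-108960774) was at 38.5, 38.1, 31.0 and 34.1 CPM (log2 ratio 0.23, SE 0.0491, edgeR adjusted p 0.0020). Tdrd6 (chr17:43615335-43630299) was at 244, 246, 208 and 209 CPM (log2 ratio 0.23, SE 0.0369, edgeR adjusted p 0.00027). Without HFD 2, 7 members were called higher in place of 13, and the share of all genes called higher was 8.26% in place of 15.3%.

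Of the members that fell, Tex15 (chr8:33516738-33585582) was at 36.2, 35.3, 43.4 and 40.4 CPM in HFD 1, HFD 2, ND 1 and ND 2 (log2 ratio -0.23, SE 0.0465, edgeR adjusted p 0.0015). Gtsf1 (chr15:103402405-103430470) was at 963, 943, 1051 and 1062 CPM (log2 ratio -0.15, SE 0.0357, edgeR adjusted p 0.0051), and without HFD 2 its adjusted p was 0.075. Dnmt3l was at 10.4, 10.3, 12.7 and 12.9 CPM (log2 ratio -0.31, SE 0.0539, edgeR adjusted p 0.00051). Its mean is under the 20 CPM set for genes named in full, and it is given because it completes the 3 that fell. Both HFD libraries lay below both ND libraries for all 3. Gtsf1 and Dnmt3l have their maxima in round-spermatid-like cells and Tex15 a second high level there.

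The whole-testis differences were smaller when each library was given the same makeup of clusters. Levels of 36 finer clusters were weighted alike in every library, and log2(CPM + 1) was compared with limma. The plain sum was not fitted with limma, so the parts of the weighting and of the change of test cannot be told apart. The member median then was 0.01 in place of 0.11, and 1 of 32 members, Mybl1, was called, with 0 lower, where 307 of the 25470 genes were. Mybl1 had a log2 ratio of 0.17 (SE 0.0346, limma adjusted p 0.0499). Of the 13 members called higher in the plain sum, 12 kept a ratio above 0, with a median of 0.04 in place of 0.20. Pld6 was at 0.11 (limma adjusted p 0.154), Tdrd6 at 0.09 (0.147) and Henmt1 at 0.05 (0.542). Dnmt3l was at -0.01, Gtsf1 at -0.04 and Tex15, on the other side, at 0.04 (limma adjusted p 0.955, 0.560 and 0.683).

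**Figure D3:**
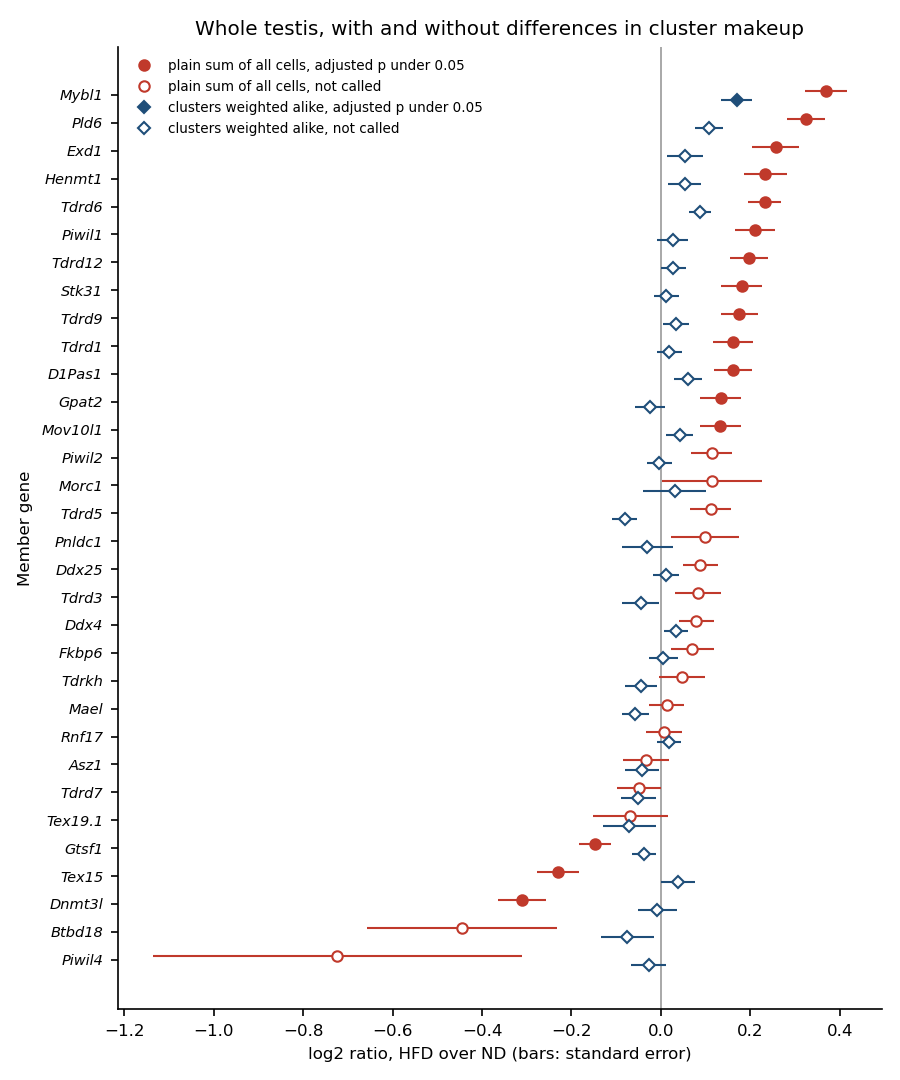
log2 ratio of HFD over ND (x axis, bars for the standard error) of the 32 members in the whole testis, from the plain sum of all cells (circles, edgeR) and with clusters weighted alike in every library (diamonds, limma on log2(CPM + 1)), filled where the adjusted p was under 0.05. The 13 members called higher and 3 called lower in the plain sum move towards 0, and Mybl1 alone stays called.

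Within the germ-cell stages few members differed between the diets. Summed over the 8 stages, 229 combinations of member and stage could be tested, and 4 were called higher in HFD and 0 lower by edgeR. Over all gene and stage combinations 0.854% were called higher and 0.989% lower. At an unadjusted p under 0.05 edgeR gave 27 higher and 13 lower, beside 6.75% and 6.96% of all gene and stage combinations. DESeq2, run without the filter on low counts, gave 10 and 4 at that level, beside 0.897% and 1% of all combinations, with 1 higher and 0 lower after adjustment among the members for which it gave an adjusted p (it gave none in 88 of 251 combinations). Without the filter the member combinations went from 229 to 251 and those of all genes from 106411 to 219044. The DESeq2 shares of all genes thus include many low-count genes and are not matched to the members for level. The 4 calls concerned Tdrd6, Ddx4 and Stk31. Piwil4 passed the filter on low counts in none of the stages, and 22 members were tested in all 8. Members below the filter in a stage are not covered by these counts.

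In Rnf227-led early-spermatocyte-like cells 1 of 31 tested members was called, against 2.61% of 15278 genes. Tdrd6 was at 277 and 264 CPM in HFD 1 and HFD 2 and at 235 and 237 in ND 1 and ND 2. The mean level, 253 CPM, was not above every somatic class (101 to 253 CPM). Both HFD libraries lay above both ND libraries, and the log2 ratio was 0.20 (SE 0.0401, edgeR adjusted p 0.0104). Without HFD 1 the ratio was 0.16 and the adjusted p 0.233. With finer clusters weighted alike it was 0.12 (limma adjusted p 0.144). In the same cells 11 of 18 pachytene markers were higher in both HFD libraries (2 lower), with a summed level of 15301 to 15471 CPM in HFD and 14680 to 14842 in ND, and 12 of 21 early-spermatocyte markers were lower in both (4 higher). Markers of some other cell types were lower too. Of the 15 late-round-spermatid markers, 13 were lower in both HFD libraries (354 to 355 CPM summed in HFD and 395 to 438 in ND), as were 12 of 15 elongating-spermatid markers (1237 to 1304 and 1381 to 1664), 5 of 6 Leydig markers (log2 ratio of the summed level -0.52) and 5 of 9 Sertoli markers (-0.30). Of 15 early-round-spermatid markers 11 were lower and 3 higher in both, and the summed levels of the diets overlapped. Of 15 late-spermatocyte markers 4 were higher and 2 lower in both. Of 7 macrophage markers 1 was higher and 0 lower, and of 8 fibroblast or peritubular markers 1 was higher and 0 lower. Tdrd6 was higher in Pou5f2-led spermatocytes than in these cells (means of 372 and 253 CPM), and the part of these marker shifts in the Tdrd6 result was not tested.

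In elongating-spermatid-like cells 2 of 28 tested members were called, against 7.12% of 12619 genes. Tdrd6 was at 73.3 and 73.9 CPM in HFD and 63.3 and 58.0 in ND, again without overlap, at a ratio of 0.28 (SE 0.0733, edgeR adjusted p 0.0126). Ddx4 was at 128, 126, 102 and 117 CPM in HFD 1, HFD 2, ND 1 and ND 2, at a ratio of 0.21 (SE 0.0646, edgeR adjusted p 0.0375). These levels are below the lowest somatic class for Tdrd6 (101 CPM) and near it for Ddx4 (103 CPM). In the same cells 14 of 15 late-spermatocyte markers were higher in both HFD libraries, at 755 and 765 CPM summed in HFD and 600 and 641 in ND. So were 13 of 18 pachytene markers (9311 and 9429 CPM in HFD, 8443 and 8668 in ND, 1 marker lower in both HFD libraries). Of 21 early-spermatocyte markers 10 were higher and 5 lower in both, and 12 of 15 elongating-spermatid markers were lower in both. Their part in the results was not tested. With finer clusters weighted alike the ratios were 0.36 for Tdrd6 and 0.29 for Ddx4 (limma adjusted p 0.0016 and 0.0041), but the median ratio of all genes in these cells then moved from 0.0045 to 0.085, with 893 of 1019 calls higher in place of 312 of 898, and the median of the 28 members was 0.15. With doublets kept, the adjusted p was 0.299 for Tdrd6 and 0.698 for Ddx4, with ratios of 0.19 and 0.09, and 49 of 13590 genes were called in these cells in place of 898. DESeq2 called neither (adjusted p 0.0946 and 0.128), and the Ddx4 call was also lost without the filter on low counts (0.0510) and with members kept in clustering (0.0535). The Tdrd6 call was lost without HFD 1, HFD 2 or ND 2, while its ratio ran from 0.22 to 0.34 over the fits with one library left out. The Ddx4 call was lost without HFD 1 or HFD 2 at ratios of 0.20 and 0.22 (0.188 and 0.214), and without ND 1 the ratio was 0.11 (0.413).

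In early-round-spermatid-like cells 1 of 31 members was called, against 1.6% of 18724 genes. Stk31 (a Tudor-domain protein with a kinase-like region, chr6:49395604-49469501) was at 20.4 and 19.9 CPM in HFD and 15.9 and 16.3 in ND, without overlap, at a ratio of 0.33 (SE 0.0600, edgeR adjusted p 0.0259). It is under the 20 CPM set for naming and is given because it is 1 of only 4 calls. Its level was below every somatic class, the lowest of which was at 20.7 CPM. Of the 15 late-spermatocyte markers, 9 were higher in both HFD libraries in these cells (1252 to 1266 CPM summed in HFD and 1167 to 1197 in ND). So were 12 of the 21 early-spermatocyte markers (1197 to 1198 and 1158 CPM), while 10 of 15 early-round-spermatid and 11 of 15 late-round-spermatid markers were lower in both. The part of these markers in the result was not tested. With doublets kept the adjusted p was 0.0510. DESeq2 called 0 members in these cells and gave no adjusted p for 20 of the 32 it fitted. Stk31 was among those without one, so DESeq2 neither kept nor lost this call.

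In the remaining 5 stages edgeR called 0 members. In spermatogonia-like cells 23 were tested, with 0 at an unadjusted p under 0.05 (4.04% of all genes), and 0% of 6385 genes were called. In Prss50-led cells 28 were tested, with 2 at an unadjusted p under 0.05 (7.79% of all genes), and 0.0226% of 8859 genes were called. In Pou5f2-led spermatocytes 30 were tested, with 7 at that level (14.4% of all genes), and 1.7% of 14839 genes were called. In late-spermatocyte-like cells 30 were tested, with 3 at that level (11.3% of all genes), and 0.35% of 14274 genes were called. In late-round-spermatid-like cells 28 were tested, with 6 at that level (10.9% of all genes), and 0.395% of 15433 genes were called. DESeq2 called 0 of the members to which it gave an adjusted p in these stages, and at an unadjusted p under 0.05 it gave 2 in Pou5f2-led spermatocytes, 1 in late-spermatocyte-like cells and 0 in the others. Member medians over the 8 stages ran from -0.09 in spermatogonia-like to 0.06 in early-round-spermatid-like cells, beside medians of all genes between -0.012 and 0.0045.

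**Figure D4:**
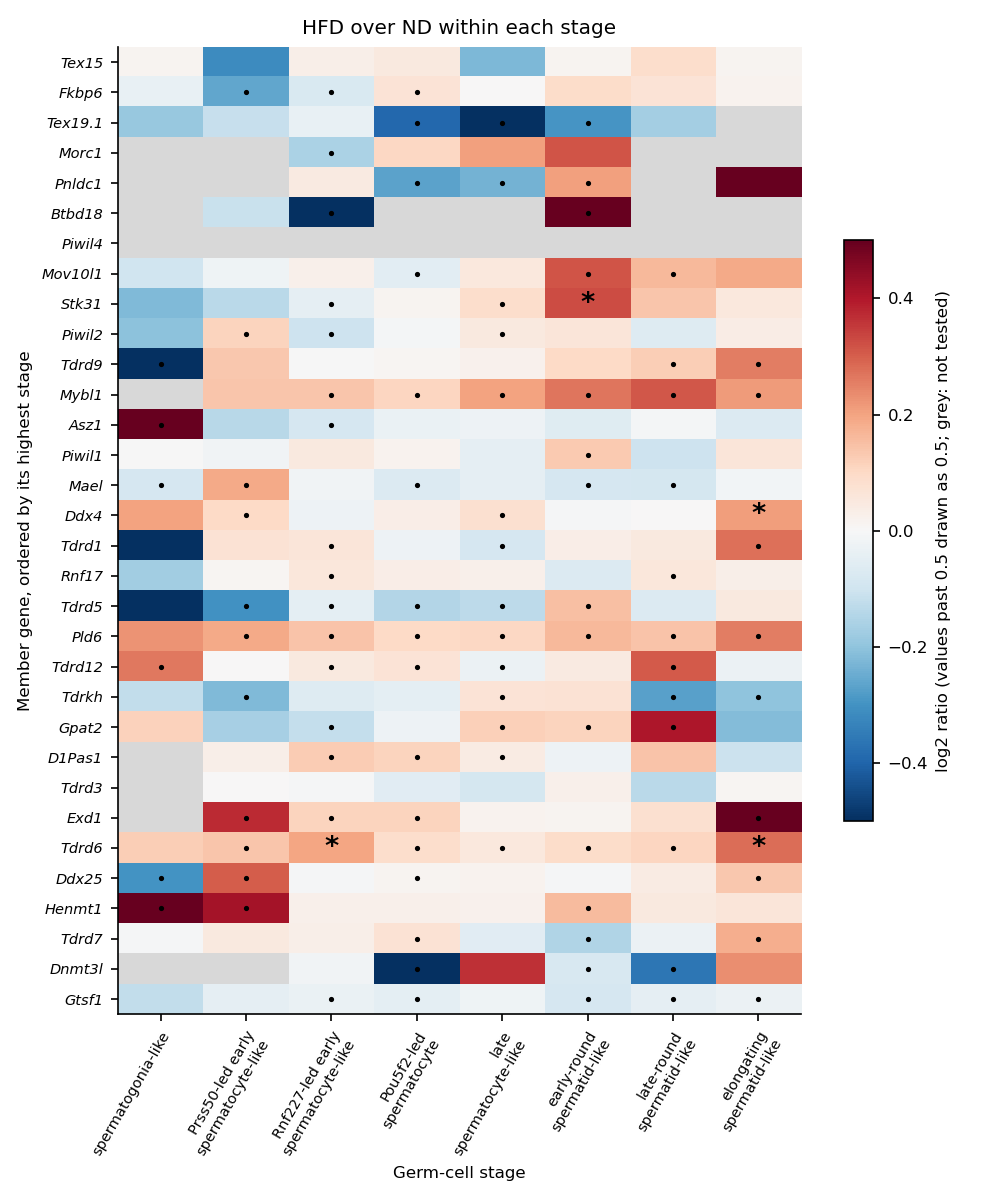
log2 ratio of HFD over ND (colour, drawn to 0.5 in each direction) of each member (rows, by highest stage) within each germ-cell stage, grey where the gene was not tested. Stars mark the 4 calls, Tdrd6 in 2 stages, Ddx4 and Stk31, and dots mark the other combinations in which the diets did not overlap.

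Across the stages, both HFD libraries lay above both ND libraries in 65 of the 229 combinations, 28.4%, against 21.8% of all gene and stage combinations, and below in 38, 16.6%, against 21.9%. Of the 22 members tested in all 8 stages, Henmt1, Pld6 and Tdrd6 had a ratio above 0 in every stage and Gtsf1 below 0 in every stage. With clusters weighted alike (limma), Henmt1 was at -0.01 in Rnf227-led cells and Gtsf1 at 0.05 in elongating-spermatid-like cells. In the latter the median ratio of all genes was then 0.085, so the signs there carry that shift. Of these 4, Pld6 and Tdrd6 kept one direction in all 8. Only 1 finer cluster was weighted in spermatogonia-like and in Prss50-led cells, so the weighting could not even out makeup in these stages. The edgeR counts are 3 of 22 members beside 6.89% of the 5613 genes tested in all 8 stages, and 1 of 22 beside 5.34%. In at least 6 stages, 2 of the 22, Pld6 and Tdrd6, had both HFD libraries above both ND libraries, beside 6.11% of those genes. These shares of so few members are not read as a result about them. Of the 5 members tested in 7 stages, Mybl1 and Exd1 had ratios above 0 in all 7 and Tex19.1 below 0 in all 7, beside 8.09% and 7.87% of the 2682 genes tested in 7 stages. With clusters weighted alike (limma), Exd1 was at -0.01 in late-spermatocyte-like and Tex19.1 at 0.04 in Rnf227-led cells, while Mybl1 stayed above 0 in all 7. Prss50-led cells, where the weighting could not act, are among these 7. Tex19.1 had ratios of -0.58 to -0.04, with both HFD libraries below in 3, and Exd1 of 0.01 to 0.60, with both above in 4. Mybl1 had ratios of 0.11 to 0.31, with both HFD libraries above both ND libraries in 6. In late-spermatocyte-like cells it was at 85.4 and 86.5 CPM in HFD and 76.2 and 73.2 in ND (log2 ratio 0.20, edgeR adjusted p 0.0750). In early-round-spermatid-like cells Mybl1 was at 17.7, 18.6, 15.3 and 14.8 (0.27, edgeR adjusted p 0.0556). Its mean there was below every somatic class, the lowest of which was at 17.5 CPM, but the HFD values were not. Pld6 had ratios of 0.10 to 0.26, without overlap in 7 of 8 stages, and Tdrd6 of 0.05 to 0.28, without overlap in 7 of 8. Gtsf1 had ratios of -0.12 to -0.02, with both HFD libraries below in 5 of 8. Many of these stages hold the genes at somatic background levels, and the part of free RNA in their ratios was not tested.

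The summed level of the 32 genes was 1354 and 1276 CPM in HFD and 1019 and 1115 in ND in Leydig-like cells. Macrophage-like cells had 3082, 3581, 2913 and 3029 CPM, and fibroblast or peritubular-like cells 3565, 3563, 2963 and 3562. Both HFD libraries lay above both ND libraries in these somatic classes, and the diets overlapped in Sertoli-like and lymphocyte-like cells. In elongating-spermatid-like cells it was 1534 and 1575 CPM in HFD and 1361 and 1426 in ND. Mybl1 lay above every somatic class in 4 stages, Pld6 in 3, Tdrd6 in 2 and Gtsf1 in 2. Over all members, 112 gene and stage combinations lay above every somatic class and 106 of them were tested, with both HFD libraries above in 25 and below in 23. Of all gene and stage combinations, 21.8% had both HFD libraries above and 21.9% below. The 25 and 23 are not read as a result about the members. Both HFD libraries were above in 3 of 4 such stages for Mybl1 (ratios 0.11 to 0.20), Exd1 (0.02 to 0.37) and D1Pas1 (0.03 to 0.13), 3 of 3 for Pld6 (0.10 to 0.14) and 2 of 2 for Tdrd6 (0.05 to 0.09). They were below in 3 of 3 for Tdrd5 (-0.30 to -0.05) and 2 of 2 for Gtsf1 (-0.08 to -0.04). Both were also below in 2 of 3 tested stages for Fkbp6 (-0.26 to -0.04) and Pnldc1 (-0.27 to 0.05), and in 1 of 1 for Dnmt3l (-0.08). These genes were picked after their values were seen. Over all tested stages, Tdrd5 and Mael each had both HFD libraries below in 4 of 8 and above in 1. The stages come from the same 4 libraries and are not independent of each other. None of the ratios of Mybl1, Exd1, D1Pas1, Pld6, Tdrd5, Mael, Fkbp6, Pnldc1, Dnmt3l or Gtsf1 within a stage passed the edgeR test.

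**Figure D5:**
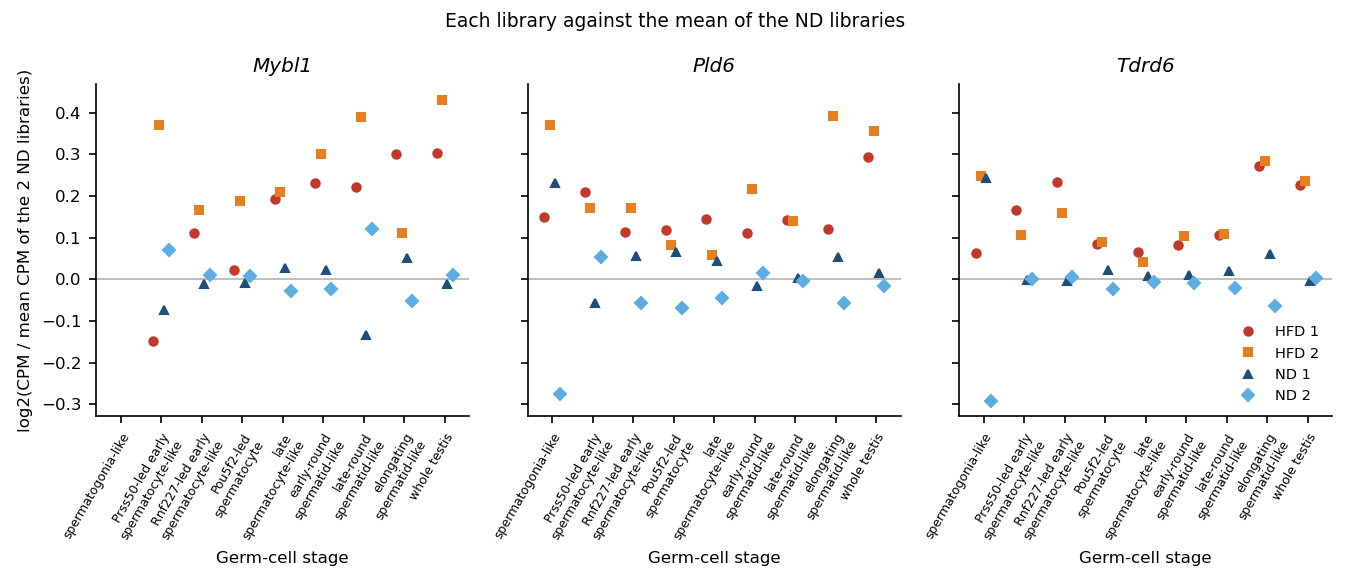
log2 of each library's TMM-scaled CPM over the mean of the 2 ND libraries (y axis) for Mybl1, Pld6 and Tdrd6 in each germ-cell stage and in the whole testis, with 1 symbol per library. The HFD symbols lie above both ND symbols in 6 of 7 stages for Mybl1 and in 7 of 8 for Pld6 and Tdrd6, and the spermatogonia-like stage, with 221 cells, scatters most for Pld6 and Tdrd6. Only 4, 3 and 2 of these stages held Mybl1, Pld6 and Tdrd6 above every somatic class.

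Other genes of small RNA biogenesis and of germ granules were taken from a second list of 38, of which 35 were found. They include partners such as Prmt5 (the arginine methyltransferase that marks Piwi proteins for Tudor binding), the Argonaute and Dicer genes and RNA-binding proteins of the chromatoid body. Over the 8 stages 237 combinations were tested, and edgeR called 1 higher and 3 lower, beside 0.854% and 0.989% of all gene and stage combinations. Both HFD libraries lay above in 17.7% and below in 30.4% of the combinations, beside 21.8% and 21.9% of all. In Rnf227-led cells Dazl (a germ-cell RNA-binding protein) was at 158, 177, 195 and 198 CPM (log2 ratio -0.23, edgeR adjusted p 0.0102), and the call was lost without HFD 1 (ratio -0.15, 0.314), with DESeq2 (0.0754), with members kept in clustering (0.0661), at Leiden resolution 2 (ratio -0.08, 0.557) and with finer clusters weighted alike (ratio -0.08, limma adjusted p 0.447). In early-round-spermatid-like cells Elavl1 (the RNA-binding protein HuR) was at 169, 162, 185 and 193 CPM (-0.19, edgeR adjusted p 0.0283), lost without HFD 2 (0.187). In elongating-spermatid-like cells Hsp90aa1 (a chaperone used in Piwi loading) was at 811, 893, 721 and 739 CPM (0.22, edgeR adjusted p 0.0015), lost without HFD 2 (0.15, 0.313) and with doublets kept (0.09, 0.630). Tcfl5 (a transcription factor of spermatocytes) was at 276, 273, 312 and 314 CPM there (-0.19, edgeR adjusted p 0.0118), lost without HFD 1 (0.121) or HFD 2 (0.241), with doublets kept (-0.12, 0.515), with members kept in clustering (-0.12, 0.165), at Leiden resolution 2 (-0.08, 0.352) and with finer clusters weighted alike (-0.09, limma adjusted p 0.268). In each case the HFD and ND libraries did not overlap.

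In the whole testis 34 of these genes were tested, and 7 were higher and 5 lower in HFD, beside the 15.3% and 18.9% of all genes. Upf1 (the helicase of nonsense-mediated decay) was at 61.4, 62.7, 51.9 and 53.4 CPM (log2 ratio 0.24, edgeR adjusted p 0.00055), and Prmt5 at 30.3, 31.7, 27.6 and 26.7 (0.19, edgeR adjusted p 0.0049, and 0.0581 without HFD 2). Kif17 (a kinesin that meets the chromatoid body) was at 52.0, 49.9, 63.3 and 60.6 CPM (-0.28, edgeR adjusted p 0.0002), and Dazl at 39.8, 46.4, 51.5 and 52.2 (-0.27, edgeR adjusted p 0.0025, and a ratio of -0.16 without HFD 1). With clusters weighted alike, 0 of the 34 were called by limma. Upf1 and Prmt5 were then at -0.02 each, on the other side of 0, while Kif17 was at -0.04 and Dazl at -0.16 (limma adjusted p 0.0751). Without HFD 2, edgeR called 1 of the 34 higher, beside 8.26% of all genes.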

How the data were processed

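Mouse testis was measured in 4 droplet libraries, and the authors deposited a matrix of UMI counts per library, made with software version 3.0.2 per the file headers and build mm10 per the submitters' processing notes. Aligner, annotation and use of strand in counting are not given in the sources used here, so reads of overlapping or antisense genes cannot be told apart. Coordinates are from GENCODE M21 (GRCm38), whose identifiers and symbols matched all 55450 genes. Cells with under 200 genes or over 20% mitochondrial UMIs and doublets called by Scrublet were removed (421 to 853 doublets per library). Cells were clustered with scanpy 1.11.5 (2000 variable genes without the 32 members, 30 components, Leiden resolution 1) and named from marker lists. Counts were summed per library and stage and tested with edgeR 4.0.16 (quasi-likelihood, filterByExpr, TMM, Benjamini-Hochberg over all genes of the stage, threshold 0.05), after the script was tested on simulated data. Alternatives used DESeq2 1.42.0 and limma 3.58.1. The same-numbered libraries did not deviate together (correlations -0.0584 to 0.0894), so the main fit has no replicate block, which was fitted as an alternative. Members and gene lists were chosen with earlier results of these data known. Genes given in full are up to 4 members, or 2 other pathway genes, per direction and stage with an adjusted p under 0.05, no overlap of the diets and at least 20 CPM.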

Additional observations from a re-analysis of the deposited data

Results flagged for a closer look

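Stk31 had log2 ratios (HFD over ND) of 0.0879 in late-spermatocyte-like cells and -0.0441 in Rnf227-led early-spermatocyte-like cells. Both HFD libraries lay above both ND libraries in the first and below them in the second, and the difference between the stages was not tested. With clusters weighted alike (limma) the ratios were 0.0294 and -0.0028.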

How the results depend on the processing

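Each result given in full was counted once under each alternative that gave it an adjusted p. In 183 of these cases it kept its direction and side of the threshold, in 38 it fell short of the threshold and in 3 it changed direction. Every such result except Mybl1 in the whole testis fell short or changed direction under at least 1 alternative. With clusters weighted alike (limma), the whole-testis ratios of Tex15, Upf1 and Prmt5 changed sign, to 0.0388, -0.0165 and -0.0208, and members called in the whole testis numbered 1 higher and 0 lower, with 0 and 0 of the other pathway genes, beside 0.554% and 0.652% of all genes. Members called higher over the stages (4) numbered 1 with DESeq2, 7 with the replicate block, 9 at Leiden resolution 2 and 7 with members kept in clustering, and 1 to 9 with one library left out (1 without HFD 1, 2 without HFD 2, 9 without ND 1). The share of all gene and stage combinations called higher moved too, from 0.854% to 0.0991% (DESeq2), 1.41% (replicate block), 1.57% (Leiden resolution 2), 0.884% (members kept), 0.426% (without HFD 1), 0.29% (without HFD 2) and 2.32% (without ND 1). Members called lower over the stages (0) numbered 1 with the replicate block, 2 at Leiden resolution 2 and 0 to 4 with one library left out (4 without ND 1), and under these 3 settings 1.57%, 2.1% and 2.9% of all combinations were called lower in place of 0.989%. In the whole testis, leaving out one library gave 7 to 17 members higher (7 without HFD 2) and 2 to 5 lower (5 without ND 1, with 17.2% of all genes). Other pathway genes called higher over the stages (1) numbered 0 with doublets kept, 2 at Leiden resolution 2 and 0 to 1 with one library left out, and those called lower (3) 1 with clusters weighted alike, 5 at Leiden resolution 2, 1 with members kept in clustering and 1 to 11 with one library left out (11 without ND 1). In the whole testis they numbered 3 higher without a filter on low counts, and 1 to 7 higher and 4 to 6 lower with one library left out. The shares of all genes moved here too. In the whole testis without that filter, 6.3% of all genes were called higher in place of 15.3%. With doublets kept, 0.599% of all gene and stage combinations were called higher in place of 0.854%. With clusters weighted alike 0.283% were called lower, and with members kept in clustering 1.29%, in place of 0.989%. Counts with a library left out come from fits with 1 library in 1 diet and are not read as a result about the genes. The highest stage was the same for 31 of 32 members with doublets kept or a common UMI floor, 28 at Leiden resolution 2 and 29 with members kept in clustering. Spermatogonia-like cells, 221 in all, limit what could be detected there.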
